A study of Mus musculus with 3 samples.

Results

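Expression of 10 genes for the receptors and intracellular transducers of TGF-β signaling was described in single cells of the mouse soft palate at E14.5. The genes were 5 receptors or co-receptors (*Tgfbr1*, *Tgfbr2*, *Tgfbr3*, *Eng* and *Acvrl1*) and 5 SMADs (*Smad2*, *Smad3*, *Smad4*, *Smad6* and *Smad7*), chosen by symbol, and all 10 were among the 32285 genes counted. A TGF-β ligand binds the type II receptor TGFBR2, which recruits and phosphorylates a type I receptor, usually TGFBR1 (also called ALK5). TGFBR1 phosphorylates SMAD2 and SMAD3, which enter the nucleus with SMAD4, whereas SMAD6 and SMAD7 dampen the signal. In the palate the pathway is known for its roles in shelf fusion and in the mesenchyme derived from the cranial neural crest.

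The soft palate was dissected from C57BL/6 embryos at stage E14.5, and 3 libraries of single cells were made with a kit that reads the 3′ ends of transcripts. The mutant library was *Osr2*-Cre;Alk5fl/fl, in which *Tgfbr1* is floxed on both alleles and the Cre is driven by *Osr2*, a gene of the palatal mesenchyme. The 2 other libraries are labelled control. Control embryos are described in the study as *Tgfbr1* fl/fl or *Tgfbr1* fl/+ littermates. The number of embryos behind each library was not given in the sources used here. With 1 mutant library, no test of the genotype was possible, and each mutant value is given beside both controls and the gap between them.

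Control 1, control 2 and the mutant held 2816, 4067 and 8690 cell barcodes, with 22624711, 27814907 and 63505144 unique molecular identifiers (UMIs, each standing for 1 captured transcript). Cells with at least 500 genes and at most 10% mitochondrial UMIs numbered 2117, 3821 and 8111. A cell was assigned to a type where it carried at least 2 marker genes of that type and of no other, which left 1368, 2661 and 5187 cells. The 10 receptors and SMADs were not among the 80 markers used. In the palatal mesenchyme, epithelial, endothelial, macrophage, erythroid and myogenic gates, own markers summed higher than in the others of each library. Drawing the gates by these same markers favours this, so it is no independent check. Cells with markers of several types were set aside (27.0%, 13.1% and 15.6% of the cells of the 3 libraries). The palatal mesenchyme gate held 1071, 2144 and 3922 cells. Within it perimysial, osteogenic and tendon gates were drawn, and 525, 1446 and 2575 cells in none of them were the remaining mesenchyme. The perimysial gate held 375, 469 and 573 cells, the osteogenic gate 89, 38 and 415 and the tendon gate 31, 108 and 142. Between 18 and 49 barcodes were shared by each pair of libraries. The macrophage gate of control 1 stood apart, because the neutrophil genes *S100a8* and *S100a9* summed to 22348 counts per 1000000 UMIs there against 61.5 and 5.68 in control 2 and the mutant. Levels below are counts per 1000000 UMIs of the summed cells (CPM).

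Windows of 260 bases, from 250 before to 10 after the start (RefSeq, GRCm38.p6), were available for 5 of the 10 genes, *Tgfbr1*, *Tgfbr2*, *Eng*, *Smad3* and *Smad6*. Of these, 3 are shown. *Tgfbr1* was chosen as the deleted gene, with capitals marking CG dinucleotides. *Eng* was chosen for its restriction to endothelial cells, with capitals marking GGAAG or its reverse complement CTTCC, the core bound by ETS factors. *Smad6* was chosen as an inhibitor that SMADs are known to induce, with capitals marking GTCTAGAC, the palindrome to which SMAD3 and SMAD4 bind in vitro.
Tgfbr1, chr4:47352972-47353231, plus strand: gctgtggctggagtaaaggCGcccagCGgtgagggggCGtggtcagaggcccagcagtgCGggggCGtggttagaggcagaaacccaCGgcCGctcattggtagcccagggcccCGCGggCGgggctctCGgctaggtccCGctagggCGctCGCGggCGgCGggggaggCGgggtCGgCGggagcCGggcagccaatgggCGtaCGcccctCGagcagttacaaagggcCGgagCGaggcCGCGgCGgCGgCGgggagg
Eng, chr2:32646345-32646604, plus strand: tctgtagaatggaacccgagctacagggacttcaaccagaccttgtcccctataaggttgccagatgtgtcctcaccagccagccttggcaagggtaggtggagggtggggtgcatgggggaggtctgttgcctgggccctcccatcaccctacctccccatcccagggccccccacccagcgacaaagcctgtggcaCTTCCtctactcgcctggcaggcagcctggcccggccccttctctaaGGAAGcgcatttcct
Smad6, chr9:64022050-64022309, minus strand: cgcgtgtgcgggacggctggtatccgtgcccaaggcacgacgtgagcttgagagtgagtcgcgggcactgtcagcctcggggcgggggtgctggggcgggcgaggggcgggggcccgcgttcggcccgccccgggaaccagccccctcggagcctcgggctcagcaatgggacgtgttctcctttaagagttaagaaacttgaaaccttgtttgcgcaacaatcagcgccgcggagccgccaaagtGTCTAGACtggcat

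The *Tgfbr1* window held 31 CG dinucleotides, more than 93.8% of the 32851 promoter windows of the same length, whose median was 6. The *Smad6* window held 27 and the *Smad3* window 23. *Tgfbr2* had 14 and *Eng* 5, and 43.0% of all windows had fewer than *Eng*. GGAAG, read on both strands, occurred 2 times in the *Eng* window and 3 times in that of *Tgfbr2*, but it is a common word that 65.8% of all windows held. GTCTAGAC occurred once in the *Smad6* window, across the start of transcription, and in 0.177% of all windows. It was in none of the other 4 windows.

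*Tgfbr1*, the type I receptor removed in the mutant, was found in every cell type. It lies at chr4:47353222-47414931 on the plus strand (GRCm38). In remaining mesenchyme its level was 49.6 CPM in control 1, 58.6 CPM in control 2 and 41.9 CPM in the mutant library, and in the perimysial gate 54.2, 59.8 and 49.8. The epithelial gate had 38.8, 47.8 and 38.1 CPM. Types are ranked, here and below, among the 9 with at least 10 cells in each library. The macrophage gate was highest, at 71.6, 79.3 and 114 CPM, and did not overlap the next of them in order of means, the perimysial cells. It overlapped the endothelial gate through control 1, which had 82.2 CPM from 7 UMIs. From perimysial to myogenic cells, neighbours in the order of mean levels overlapped. In a test of each type against remaining mesenchyme (edgeR's quasi-likelihood test with the library as a block, Benjamini-Hochberg adjustment over 10841 genes), *Tgfbr1* was higher in macrophages by 1.19 on the log2 scale (SE 0.18, adjusted p = 1.6e-06). No other type passed for *Tgfbr1*, and the fitted differences outside the erythroid gate ran from -0.46 in endothelial to 0.13 in tendon cells. The macrophage difference also held without the *S100a8* and *S100a9* cells. The fit pooled the mutant with the controls, so 1.19 is not a value of the controls alone. The mutant had the highest macrophage level and the lowest remaining mesenchyme level. Macrophages were above remaining mesenchyme in each library, but by more in the mutant than in either control. Over 14 alternative analyses the fitted difference ran from 0.81 to 1.41.

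*Tgfbr2*, the type II receptor that binds the ligand, was high in endothelial cells and low in myogenic cells. It lies at chr9:116084293-116175360 on the minus strand. Endothelial cells had 58.7, 128 and 88.3 CPM (in the order control 1, control 2 and mutant, used throughout), where control 1 rests on 5 UMIs from 14 cells. Myogenic cells had 1.27, 5.61 and 3.66 CPM, from 1, 6 and 3 UMIs, and of the 9 types compared lay below every other but the erythroid cells. Against remaining mesenchyme, which had 21.4, 34.0 and 26.1 CPM, edgeR gave log2 differences of 1.85 in endothelial cells (SE 0.17, adjusted p = 4.8e-11), 1.02 in macrophages (SE 0.20, adjusted p = 4.6e-05) and -2.57 in myogenic cells (SE 0.34, adjusted p = 1.3e-07).

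Within the mesenchyme *Tgfbr2* was highest in perimysial cells, the fibroblasts around the muscle, and lowest in osteogenic cells. Perimysial cells had 34.9, 52.7 and 40.5 CPM, above remaining mesenchyme in each of the 3 libraries. Osteogenic cells had 7.81, 18.1 and 12.8 CPM, and the 3 ranges did not overlap. By edgeR the perimysial difference was 0.58 (SE 0.15, adjusted p = 0.0485) and the osteogenic difference -0.97 (SE 0.21, adjusted p = 0.0015). The perimysial call sat at the edge of the threshold and was lost in 8 of 13 alternative analyses, with the difference between 0.49 and 0.97 in all of them. It was lost without control 2 (0.59, adjusted p = 1.0) and without the mutant (0.60, adjusted p = 0.42). The osteogenic call was lost without the mutant (adjusted p = 0.097). After each cell was thinned to 2000 UMIs, a *Tgfbr2* UMI was seen in 7.49%, 10.2% and 6.75% of perimysial cells and in 3.85%, 5.95% and 5.02% of remaining mesenchymal cells of control 1, control 2 and the mutant. The myogenic cells, read as the background, gave 1.89%, 1.68% and 0.00%, from 1, 2 and 0 cells, and 0 of 114 mutant cells allows a share of cells with a UMI of up to 2.63% (the limit of 3 counts, used for every share of 0). Before thinning, these shares were 23.5%, 25.8% and 25.7% in perimysial, 13.1%, 15.1% and 11.6% in remaining mesenchymal and 1.85%, 5.0% and 2.59% in myogenic cells.

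*Tgfbr3* encodes betaglycan, a co-receptor that presents ligand to TGFBR2. It lies at chr5:107106570-107289629 on the minus strand and overlaps 3 short gene models on the same strand, so its counts are less certain. Its level was 14.2, 14.7 and 16.3 CPM in remaining mesenchyme and 17.7, 23.2 and 25.0 in perimysial cells. *Tgfbr3* was low in epithelial (3.07, 5.12 and 4.31 CPM), macrophage (4.21, 2.73 and 1.14) and myogenic cells (1.27, 2.81 and 2.44), the last 2 with 1 to 3 UMIs in each library. By edgeR it was lower than in remaining mesenchyme in epithelial (-1.82, adjusted p = 1.9e-04), macrophage (-2.33, adjusted p = 7.5e-04) and myogenic cells (-2.42, adjusted p = 2.7e-04). It was also lower in osteogenic cells (-1.05, SE 0.32, adjusted p = 0.023), a call lost without control 2 (adjusted p = 0.072), without the mutant (adjusted p = 0.21) and by DESeq2 (adjusted p = 0.097). The perimysial difference of 0.47 (SE 0.21) did not pass (adjusted p = 0.61).

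*Eng* and *Acvrl1* marked the endothelial gate although neither was used to draw it. Endoglin is a co-receptor of endothelial cells and ACVRL1 (ALK1) their second type I receptor, and mutations in either cause hereditary hemorrhagic telangiectasia in humans. *Eng* lies at chr2:32646595-32682669 on the plus strand. It overlaps *Fpgs* on the other strand and *Mir1954*, *Gm47291* and *Gm26236* on the same strand, so its counts too are less certain. *Eng* had 188, 197 and 233 CPM in endothelial cells. Its remaining mesenchyme level was 6.87, 6.72 and 5.59 CPM and its highest value in any other of the 9 types compared was 14.6 CPM, in perimysial cells of control 1. The endothelial difference was 5.16 (SE 0.20, adjusted p = 4.6e-20 by edgeR). After thinning, an *Eng* UMI was found in 33.3%, 28.6% and 37.8% of endothelial cells, in 1.54%, 1.40% and 1.31% of remaining mesenchymal cells and in 1.15%, 0.680% and 0.00% of epithelial cells, where 0 of 226 mutant cells allows up to 1.33% by the same limit. The unthinned shares were 57.1%, 62.5% and 66.2% in endothelial, 4.95%, 3.18% and 2.80% in remaining mesenchymal and 2.20%, 0.680% and 0.429% in epithelial cells. The share in remaining mesenchyme was within the interval of the epithelial share in each library.

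*Acvrl1* lies at chr15:101128522-101145336 on the plus strand. It had 70.5, 37.7 and 48.4 CPM in endothelial cells, from 6, 27 and 74 UMIs, against 6.10, 6.17 and 5.51 in remaining mesenchyme. The difference was 3.06 (SE 0.29, adjusted p = 1.5e-10 by edgeR). Macrophages had 12.6, 13.7 and 6.82 CPM, a log2 difference of 1.15 (SE 0.40, adjusted p = 0.017). That call was lost without either control (adjusted p = 0.066 without control 1 and 0.18 without control 2) and without the *S100a8* and *S100a9* cells (adjusted p = 0.084). In epithelial cells 1, 0 and 1 UMIs were counted and in myogenic cells 1, 0 and 0. Both gates were lower than remaining mesenchyme by edgeR (adjusted p = 1.9e-04 and 0.0016), and no fold is given in the text for so few UMIs. *Eng* was lower in epithelial cells too, with 2, 1 and 1 UMIs (adjusted p = 4.2e-04). In myogenic cells it had 3, 2 and 0 UMIs (adjusted p = 0.042), a call lost without control 2 (adjusted p = 0.22) and without the mutant (adjusted p = 0.25).

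*Smad2*, a direct substrate of TGFBR1, had 27.0, 19.3 and 20.2 CPM in remaining mesenchyme and 22.4, 21.4 and 26.1 in perimysial cells. *Smad2* passed in none of the 8 contrasts by edgeR, and its nearest value was in myogenic cells (-0.62, SE 0.28, adjusted p = 0.070), where DESeq2 called it (adjusted p = 0.029). *Smad3*, the other substrate, at chr9:63646767-63757994 on the minus strand, had its highest mean in epithelial cells, with 27.6, 29.9 and 24.6 CPM against 15.5, 15.4 and 12.3 in remaining mesenchyme. These 2 gates did not overlap, though epithelial and tendon cells did, and edgeR gave a difference of 0.95 (SE 0.23, adjusted p = 0.0011). Without control 2 that call was lost (0.93, adjusted p = 0.059). In endothelial cells *Smad3* had 23.5, 4.19 and 1.96 CPM, from 2, 3 and 3 UMIs. Control 1 lay above its remaining mesenchyme there, and control 2 and the mutant below theirs. The edgeR difference was -1.93 (SE 0.46, adjusted p = 8.9e-04). That call was lost in 2 of 12 alternatives, 1 of them without the mutant (adjusted p = 0.16), and the difference ran from -2.26 to -0.45.

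*Smad4*, the common partner of the receptor-activated SMADs, differed little between types. Outside the erythroid gate its mean level ran from 24.9 CPM in myogenic to 45.1 in epithelial cells, and no neighbours in that order differed beyond their spread. It passed in no contrast, with fitted differences from -0.24 in erythroid to 0.32 in epithelial cells. The unadjusted p for *Smad4* was not under 0.05 in any contrast, the lowest being 0.086 in epithelial cells. DESeq2 did not call it either.

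The inhibitory SMADs were called in different types. Their profiles over the 9 types, the low erythroid gate among them, gave Pearson r = 0.864, a description with no test. *Smad7* was closer to *Smad2* (0.938), *Smad3* (0.959) and *Smad4* (0.960). *Smad7*, which recruits ubiquitin ligases to the activated receptor, had its highest mean in epithelial cells, at 33.7, 39.2 and 46.8 CPM and overlapping tendon cells, against 27.2, 28.4 and 24.7 in remaining mesenchyme. The difference of 0.59 (SE 0.21, adjusted p = 0.021 by edgeR) was lost without control 2 (adjusted p = 0.096), without the mutant (adjusted p = 0.21) and by DESeq2 (adjusted p = 0.13). Myogenic cells had 7.62, 12.2 and 14.6 CPM, lower by edgeR (-0.88, SE 0.30, adjusted p = 0.018), a call lost without control 1 (adjusted p = 0.11) or control 2 (adjusted p = 0.11). *Smad6*, at chr9:63953076-64022059 on the minus strand, is known mainly as an inhibitor of the BMP arm. It had 8.65, 8.78 and 7.84 CPM in remaining mesenchyme and 0, 4 and 1 UMIs in macrophages, where it was lower (-1.47, SE 0.57, adjusted p = 0.030). The *Smad6* call was lost without control 1 (adjusted p = 0.15) and without the mutant (adjusted p = 0.28).

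**Figure D1:**
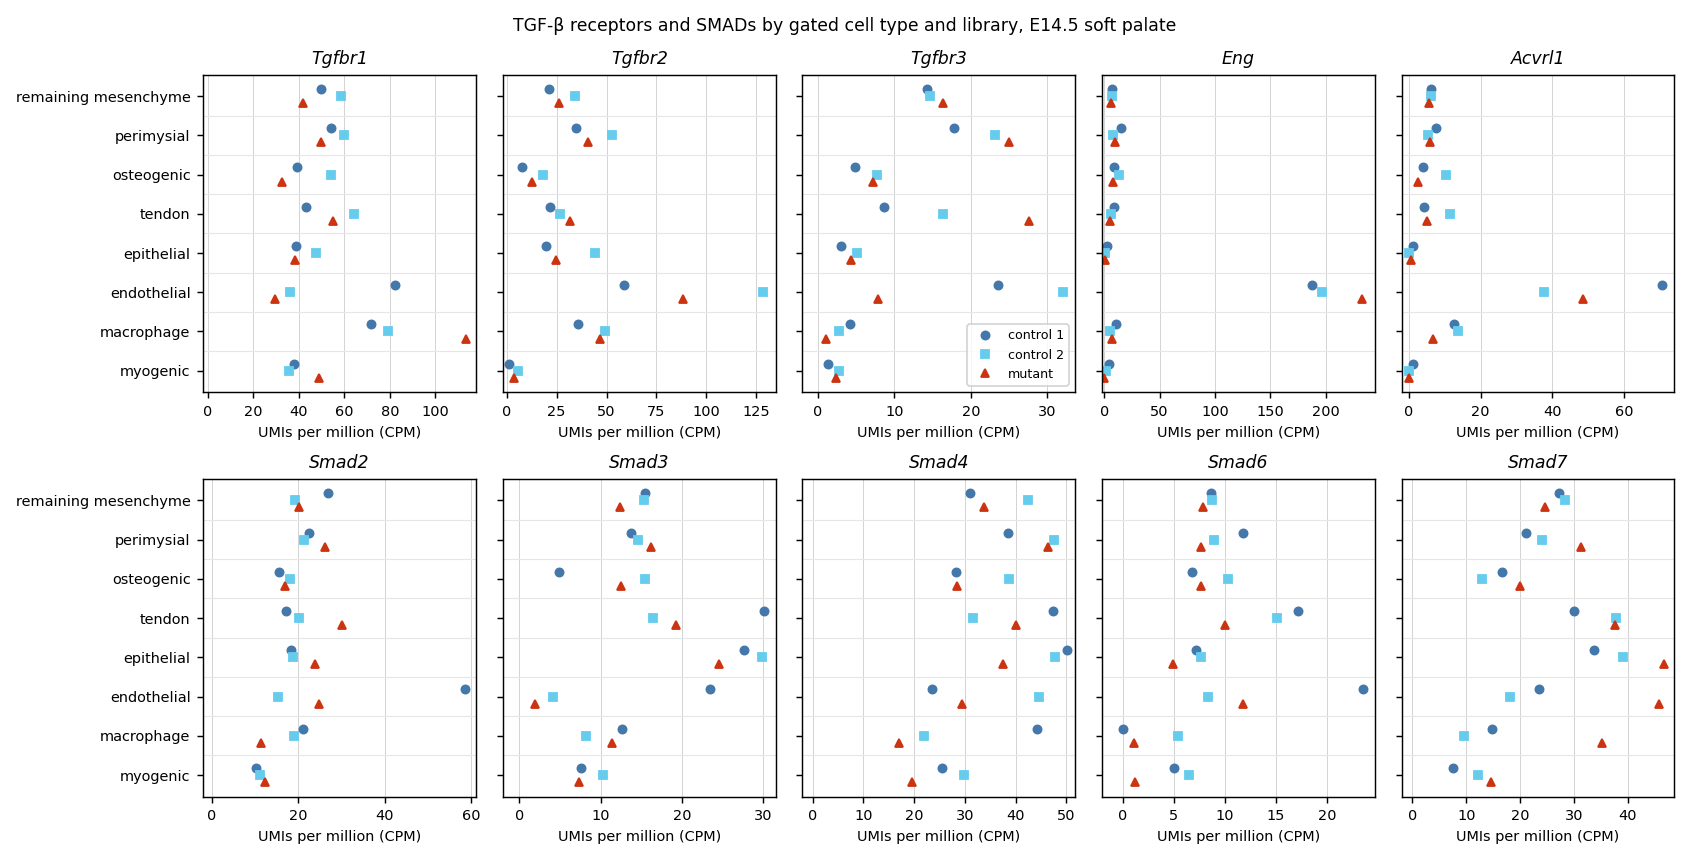
Levels of the 10 genes in CPM (x axis, linear, a scale of its own for each gene) by gated cell type (y axis), with 1 point for each library: control 1 (circles), control 2 (squares) and the mutant (triangles); the erythroid gate is not drawn. *Eng* and *Acvrl1* stand out in endothelial cells, *Tgfbr1* in macrophages, and *Tgfbr2* is low in myogenic cells.

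Counted over the 10 genes, edgeR called 1 higher in perimysial cells (*Tgfbr2*), while 0.618% of all 10841 genes were called higher and 0.0738% lower. In osteogenic cells 2 were called lower, where 7.85% of all genes were lower and 7.24% higher. In tendon cells 0 were called, with 0 at an unadjusted p under 0.05 and 0 by DESeq2, against 0.0553% of all genes higher and 0.00% lower. In epithelial cells 2 were higher and 3 lower, against 19.0% and 18.7% of all genes. In endothelial cells 3 were higher and 1 lower, against 21.4% and 21.1%. Macrophages had 3 higher and 2 lower, against 25.7% and 26.3% of all genes. In myogenic cells 5 were lower and 0 higher, against 23.1% and 19.1%. In erythroid cells 0 were called (1 at an unadjusted p under 0.05, 0 by DESeq2), against 1.43% higher and 2.86% lower.

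The shares in macrophage and epithelial cells were near those of all genes. The median fitted difference of the 10 genes was -0.75 in myogenic cells against -0.15 for all genes tested, 0.24 against -0.05 in endothelial cells and -0.28 against -0.07 in osteogenic cells. Without TMM scaling the median of all genes moved by -0.31 in macrophages, -0.32 in myogenic cells and -1.54 in erythroid cells, and 8 of the 10 genes were then called in erythroid cells, all lower. The erythroid gate held 20, 12 and 17 cells, and *Eng*, *Acvrl1*, *Smad2*, *Smad3* and *Smad6* had 0 UMIs there in all 3 libraries.

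**Figure D2:**
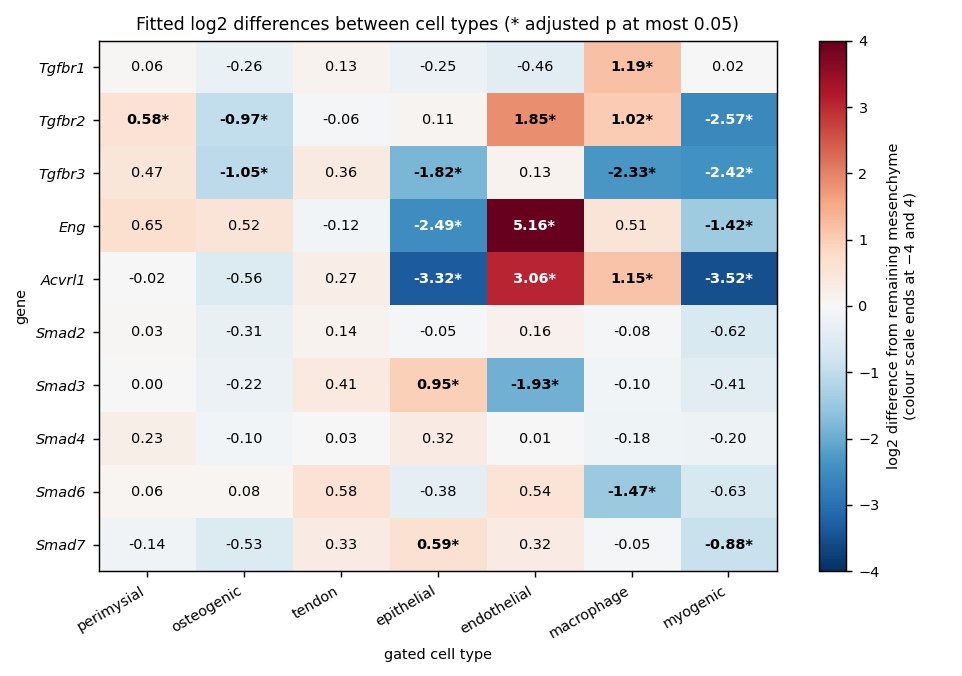
Fitted log2 difference of each gene (rows) in each cell type (columns) from remaining mesenchyme, from edgeR over all 3 libraries. Colours run from blue (lower) to red (higher), with a star where the adjusted p was at most 0.05. The erythroid contrast is not drawn. The *Acvrl1* values in epithelial and myogenic cells rest on 0 or 1 UMIs in each library of these gates. *Smad2* and *Smad4* carry no star, and the myogenic column holds 5 stars, all on negative values.

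The other genes of the pathway were taken from a list of 35 receptors, co-receptors, SMADs and regulators, of which 29 were tested. By edgeR 8 were higher and 3 lower in epithelial cells (19.0% and 18.7% of all genes), 9 and 6 in endothelial cells (21.4% and 21.1%), 6 and 11 in macrophages (25.7% and 26.3%) and 6 and 5 in myogenic cells (19.1% and 23.1%). In osteogenic cells 2 were higher and 3 lower (7.24% and 7.85% of all genes), in perimysial cells 1 and 0 (0.618% and 0.0738%), in erythroid cells 0 and 1 (1.43% and 2.86%) and in tendon cells 0 and 0 (0.0553% and 0.00%). The perimysial gene was *Nrp1*, a co-receptor for semaphorins and VEGF that also binds TGF-β (0.77, adjusted p = 0.0485), a call at the edge of the threshold. For the pathway list, differences between cell types were not checked under the alternative analyses. In endothelial cells *Nrp1* was higher by 2.43 (adjusted p = 3.4e-11) and *Bambi*, a decoy receptor without a kinase, by 2.48 (adjusted p = 1.1e-10). *Lrrc32*, which holds latent TGF-β on the cell surface, was higher in epithelial (3.73, adjusted p = 2.2e-09) and endothelial cells (2.10, adjusted p = 0.0029). *Pmepa1*, a TGF-β-induced inhibitor that binds SMAD2 and SMAD3, was lower in myogenic cells by 2.46 (-2.46, adjusted p = 3.8e-06).

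Each gene's profile over the 9 types was set beside those of 4497 other genes of at least 50 CPM in some type. The closest for *Tgfbr1* was *Tor1aip1* (Pearson r = 0.995), for *Tgfbr2* *Klf7* (0.971), for *Tgfbr3* *Fbln5* (0.975), for *Eng* *BC028528* (0.975) and for *Acvrl1* *Fli1* (0.973). For *Smad2* it was *Mib1* (0.997), for *Smad3* *Hint2* (0.993), for *Smad4* *Son* (0.990), for *Smad6* *Rc3h2* (0.985) and for *Smad7* *Peli1* (0.991). *Klf2* and *Xbp1* followed *Fli1* for *Acvrl1*, and *Adamts10* and *Dchs1* followed *Fbln5* for *Tgfbr3*. These are descriptions over 9 points that share libraries and depth, and the low erythroid gate is 1 of the points.

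Turning to the genotype, *Tgfbr1* comes first as the deleted gene. In the palatal mesenchyme gate, which the *Osr2* driver targets, it had 50.9 CPM in control 1 (95% Poisson interval 46.4 to 55.7, counting error only), 61.2 in control 2 (57.0 to 65.7) and 46.2 in the mutant (43.6 to 48.8). The mutant lay below both controls. Its log2 difference from the mean of the controls was -0.27, a ratio of 0.827, and the controls differed by 0.27 from each other. In what follows, a mutant level is beyond the gap under 2 conditions. It lay outside both controls, and its log2 distance from their mean exceeded the gap between them. The distance from the nearer control can be smaller than that gap. The interval of the mutant overlapped that of control 1. The thinned shares of mesenchymal cells with a *Tgfbr1* UMI were 9.77%, 12.3% and 8.48% (30.6%, 27.7% and 23.5% before thinning). The files count the 3′ ends of transcripts and the floxed exon is not given in the sources used here. An RNA that lacks the deleted part could still be counted, so the level does not measure deletion. *Osr2* itself, which drives the Cre, had 229, 326 and 107 CPM in this gate. The mix of perimysial, osteogenic and tendon cells in the gate differed between the libraries. The part of that mix in the values of the whole gate was not tested.

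The direction of *Tgfbr1* was not the same in all gates. Its log2 ratio of the mutant to the mean of the controls was -0.36 in remaining mesenchyme, -0.19 in perimysial and -0.50 in osteogenic cells. Each lay beyond the gap, below both controls. In macrophages it was 0.59 and in myogenic cells 0.41, each beyond the gap and above both controls, from 100 and 40 UMIs of the mutant. In epithelial cells (-0.18) and endothelial cells (-0.89) the mutant also lay below both controls, by less than the gap between them. The endothelial level of control 1 rests on 7 UMIs. In tendon cells the mutant lay between the controls, at 43.0, 64.4 and 55.2 CPM (0.07). The thinned share of macrophages with a *Tgfbr1* UMI was 10.9%, 11.3% and 23.6% in control 1, control 2 and the mutant (22.2%, 29.8% and 45.8% before thinning, at median depths of 2944.5, 5701 and 5192 UMIs), and in erythroid cells 0.00%, 0.00% and 5.88% (5.0%, 0.00% and 17.6% before thinning, at median depths of 10147.5, 8981 and 6672 UMIs). The first 2 of these erythroid shares rest on 0 of 13 and 0 of 12 cells, which by the limit of 3 counts allows up to 23.1% and 25.0%. Without the *S100a8* and *S100a9* cells the macrophage levels were 89.3, 76.9 and 114 CPM, and the intervals of the 3 libraries overlapped.

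**Figure D3:**
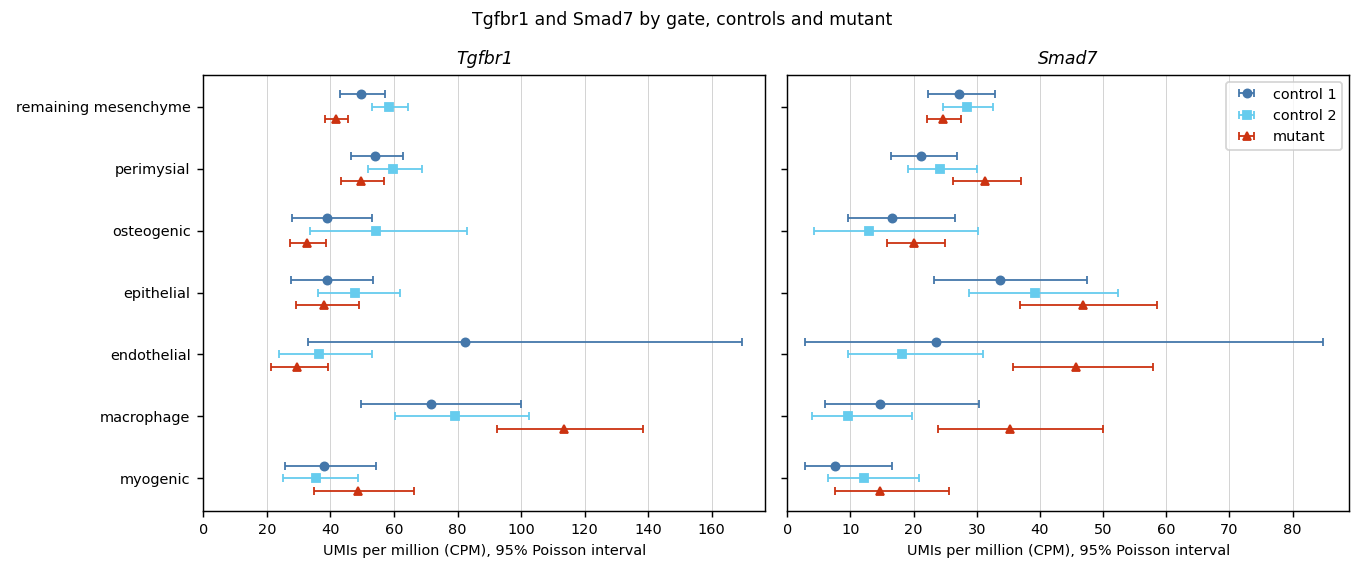
*Tgfbr1* (left) and *Smad7* (right) in CPM (x axis, linear) by gate (y axis) for control 1, control 2 and the mutant, with bars for the exact 95% Poisson interval, which covers counting error only. The mutant is the lowest of the 3 for *Tgfbr1* in remaining mesenchyme, perimysial, osteogenic, epithelial and endothelial cells. It is the highest in macrophages and myogenic cells. *Smad7* in macrophages is also highest in the mutant.

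Among the other receptors and SMADs the mesenchymal levels of the mutant lay close to those of the controls. Of the 7 genes with a mean of at least 10 CPM in the palatal mesenchyme, 1 (*Tgfbr1*) lay beyond the gap below both controls and 0 above. The *Tgfbr1* log2 ratio of -0.274 stood against a control gap of 0.267. With TMM factors 0 lay beyond the gap below and 3 above, with a *Tgfbr1* log2 ratio of -0.13. The share of all genes was not computed with TMM factors. Without them, of all 8393 genes of that level, 27.9% lay below and 9.50% above by that rule. By at least 1.5-fold against each control, 0 of the 7 were lower and 0 higher, against 3.04% and 0.917% of all genes. *Tgfbr2* had 24.8, 38.2 and 29.1 CPM, *Smad4* 35.2, 43.5 and 39.5, and *Smad7* 24.0, 27.4 and 27.3, with the mutant between the controls in each case. The controls of *Tgfbr2* differed from each other by 0.62 on the log2 scale. *Smad2* had 22.8, 20.1 and 21.7 CPM and *Smad3* 14.2, 16.0 and 14.7. *Tgfbr3* lay above both controls by less than their gap, at 14.2, 17.2 and 18.7 CPM.

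In perimysial cells 3 of 8 genes lay beyond the gap above both controls (12.0% of all genes did) and 1 below (26.4%). *Smad7* had 21.2, 24.1 and 31.3 CPM there, a log2 ratio of 0.47. *Smad2* had 22.4, 21.4 and 26.1 (0.25) and *Smad3* 13.7, 14.6 and 16.2 (0.20). The Poisson interval of the mutant overlapped that of at least 1 control for each of them. In remaining mesenchyme *Smad7* went the other way, 27.2, 28.4 and 24.7 CPM (-0.17), as did *Smad3*, 15.5, 15.4 and 12.3 (-0.32). In epithelial cells 2 of 6 lay above (*Smad2* and *Smad7*) and 2 below (*Smad3* and *Smad4*), against 13.3% and 29.1% of all genes.

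Outside the mesenchyme *Smad7* lay beyond the gap above both controls in macrophages and epithelial cells. In macrophages it had 14.7, 9.57 and 35.2 CPM, from 7, 7 and 31 UMIs, a log2 ratio of 1.57. The mutant interval, 23.9 to 50.01, lay above that of control 2 (3.85 to 19.7) and overlapped that of control 1 (5.93 to 30.4). *Smad7* was the only one of the 7 genes of at least 10 CPM that was at least 1.5-fold higher there, as were 2.93% of all genes, and 2 (*Acvrl1* and *Smad2*) were at least 1.5-fold lower, as were 11.3%. Summed over 8 immediate early genes, which respond to stress and dissociation, the macrophage level was 3861, 3528 and 5780 CPM and the epithelial level 2103, 1836 and 1592. This sum was highest in the mutant in macrophages and lowest in the mutant in epithelial cells, and its part in the *Smad7* values was not tested. Without the *S100a8* and *S100a9* cells the log2 ratio of *Smad7* was 1.52. *Acvrl1* then had 5.25, 13.7 and 6.82 CPM, from 2, 10 and 6 UMIs, so the mutant lay between the controls. *Smad2* then had 21.0, 19.2 and 11.4 CPM, still below both controls.

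Over all cells outside the mesenchyme *Smad7* had 19.0, 21.0 and 33.4 CPM (intervals 14.2 to 25.0, 16.8 to 26.0 and 29.6 to 37.7), and the mutant lay apart from both controls. It was at least 1.5-fold higher than each, as were 7.44% of all genes, while *Smad3* was at least 1.5-fold lower (15.7, 14.6 and 9.48 CPM), as were 5.46%. The mix of types in these cells differed between the libraries, with 12, 9 and 288 cells in the neuronal gate and 14, 80 and 228 in the endothelial gate. The part of that mix in the *Smad7* and *Smad3* values was not tested. In endothelial cells alone *Smad7* had 18.1 CPM in control 2 and 45.8 in the mutant, and control 1 had 2 UMIs, too few for a level. *Tgfbr3* had 32.1 CPM there in control 2 (23 UMIs) and 7.85 in the mutant (12 UMIs), with intervals of 20.3 to 48.1 and 4.06 to 13.7, and control 1 again had 2 UMIs. *Eng* over all cells outside the mesenchyme had 9.52, 37.6 and 47.4 CPM, above both controls by less than the gap between them.

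In the mutant mesenchyme 3 other genes of the pathway list lay well below both controls. *Pmepa1*, the SMAD-binding inhibitor, had 53.9, 58.9 and 29.5 CPM in remaining mesenchyme, a ratio of 0.524 to the controls. *Rgma*, a BMP co-receptor, had 34.8, 38.7 and 20.2 CPM and *Nrp1* 34.3, 33.2 and 19.2. These 3 of the 24 genes of the pathway list with at least 10 CPM were at least 1.5-fold lower than each control in that gate, where 3.87% of all genes were, and 0 were higher, where 0.699% of all genes were. None of the 10 receptors and SMADs passed that rule in remaining mesenchyme.

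In the whole palatal mesenchyme gate *Pmepa1* had 60.8, 63.7 and 42.7 CPM, below both controls. The mix of perimysial, osteogenic and tendon cells in that gate differed between the libraries, and its part in these values was not tested. Of the 24 genes of the list in the whole gate, 7 lay beyond the gap below both controls (*Rgma*, *Rgmb*, *Nrp1*, *Pmepa1*, *Ppm1a*, *Tgif1* and *Tgif2*). That count stood near the background, since 27.9% of all genes did so. Above both controls there were 0, against 9.50% of all genes. In perimysial cells *Pmepa1* had 72.2, 66.7 and 52.5 CPM, again below both controls, whereas in osteogenic cells it had 37.1, 33.6 and 39.0. The log2 ratio of *Pmepa1* in the mesenchyme gate moved from -0.54 to -0.23 where 3 markers were asked for and to -0.21 where cells with markers of 2 types were kept, and it was -0.87 without the cells of the highest UMI counts. It kept its sign in each of the 9 alternatives.

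**Figure D4:**
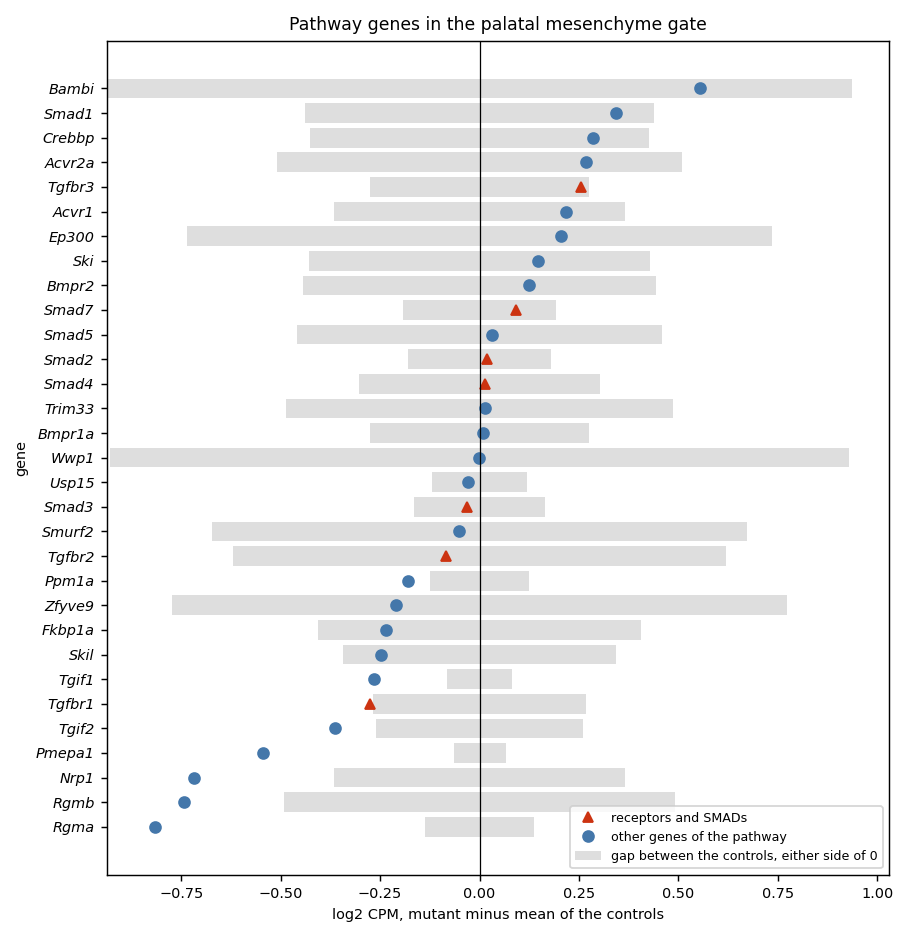
Difference in log2 CPM between the mutant and the mean of the controls (x axis) for each pathway gene with at least 10 CPM in the palatal mesenchyme gate (y axis), with receptors and SMADs as triangles, other pathway genes as circles and a grey bar for the gap between the controls drawn on either side of 0. *Tgfbr1* sits at the edge of its bar, and *Rgma*, *Rgmb*, *Nrp1* and *Pmepa1* lie to the left of theirs.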

How the data were processed

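Single-cell RNA of 3 libraries of the mouse soft palate was analysed, 2 control and 1 *Osr2*-Cre;Alk5fl/fl. The authors deposited raw UMI counts per gene and barcode for each library, without normalization, and no pooled or combined matrix was used. The file headers and the study's methods name Cell Ranger 4.0.0, while the submitters' processing notes list 3.1.0 and the build mm10. Cells with under 500 genes or over 10% mitochondrial UMIs were dropped. No doublet caller was run, and cells passing several marker gates were set aside, which leaves doublets within a type. Gates needed 2 markers, and their names can differ from the clusters of the study.

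Counts were summed per library and cell type and given as CPM. Types with at least 10 cells in each library (9 types) entered 1 edgeR 4.0.16 quasi-likelihood fit in R 4.3.3, with TMM factors, the low-count filter and library as a block. A contrast was called at an adjusted p of at most 0.05, and standard errors were taken from the F statistic, so they are approximate. Sums of 1 library are not independent, and nothing says that the libraries are more than separate samples, so p-values measure the spread between these samples only. Against the controls, a mutant level was read by its side, by the gap between the controls and by 1.5-fold against each, with counts under 3 UMIs set to 3 and no ratio where no library exceeded 3. A level beyond the gap lay outside both controls and farther from the mean of their log2 levels than the controls lay from each other. Shares of cells were computed after thinning to 2000 UMIs, with exact Clopper-Pearson intervals. The edgeR fit and the 1.5-fold rule were tested on simulated data. The libraries simulated for the 1.5-fold rule differed by counting error and the planted changes only, and the gap rule was not tested. The genes, the gene lists and the rule for naming genes (all 10 members, pathway genes that passed a contrast or lay outside the controls, and the genes with the closest profile) were chosen with earlier results of these data known. Alternatives covered DESeq2 1.42.0, scaling, filters, gates and left-out libraries.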

Additional observations from a re-analysis of the deposited data

Results flagged for a closer look

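At least 3 UMIs were required in each library. For 5 of the genes the mutant then lay beyond the gap above both controls in 1 cell type and below both in another. *Tgfbr3* did so too, at 0.92 in tendon and -2.10 in endothelial cells, but control 1 held 2 UMIs in each of these gates. None of these differences between types was tested, since there is 1 mutant library. The share of all genes that did so was not computed, so the count of 5 is not a result about these genes. In every gate named here the Poisson interval of the mutant overlapped that of at least 1 control. For *Tgfbr1* the log2 ratio was 0.59 in macrophages and -0.50 in osteogenic cells, a difference of 1.09. For *Eng* it was 0.28 in endothelial cells and -0.28 in remaining mesenchyme, a difference of 0.558. For *Smad2* it was 0.69 in tendon cells and -0.82 in macrophages, a difference of 1.51, with 10 UMIs of the mutant in macrophages. For *Smad3* it was 0.20 in perimysial cells and -0.32 in remaining mesenchyme, a difference of 0.521. For *Smad7* it was 1.57 in macrophages and -0.17 in remaining mesenchyme, a difference of 1.74.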

How the results depend on the processing

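No paired analysis was possible because the mutant carries no replicate number that it shares with 2 controls. Of 22 called differences among 80, 10 were called under every alternative that gave a value, and no called difference changed direction. Of these 10, *Acvrl1* in endothelial, epithelial and myogenic cells had no value with cells thinned to 2000 UMIs. Nor had *Tgfbr3* in epithelial, macrophage and myogenic cells, so thinning did not count against these calls. These 22 were called in 232 of 276 alternative values. Members called in perimysial cells (1) fell to 0 with 3 markers, with 200 genes and no mitochondrial limit, without cells over 2 times the median UMIs, with cells thinned to 2000 UMIs, without the low-count filter and without the library term, and rose to 2 in a fit of the 2 types alone. Osteogenic calls (2) fell to 0 with 3 markers and to 1 by DESeq2 and without the library term. Thinning to 2000 UMIs, which leaves fewer counts, gave 0 in the epithelial contrast against 5, 2 against 4 in endothelial, 1 against 5 in macrophage and 1 against 5 in myogenic cells. Macrophage calls were 3 without cells over 2 times the median, myogenic calls 3 without the library term, and erythroid calls 8 without TMM. Leaving out 1 library gave 0 to 1 calls in perimysial, 0 to 2 in osteogenic, 3 to 5 in epithelial and 3 to 5 in myogenic cells.

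The *Tgfbr1* log2 ratio in the mesenchyme, -0.27, ran from -0.42 to -0.13 in the alternative gates and scalings and from -0.41 to -0.14 without a control, and was 0.22 in all cells outside the mesenchyme. With TMM factors 0 members lay beyond the gap below both controls and 3 above. The counts below and above were 2 and 3 with 3 markers, 2 and 1 with cells of 2 gates kept and 2 and 0 without cells over 2 times the median. With no minimum CPM 3 lay below. The share of all genes was not computed in these settings or with TMM factors, so these counts are not a result about the members. In the perimysial gate 3 lay above, as did 12.0% of all genes. Outside the mesenchyme 2 lay below and 3 above, as did 2098 and 2142 of all 8491 genes. There 2 passed 1.5-fold, 1 in each direction, against 5.46% of all genes lower and 7.44% higher. Mean CPM in the mesenchyme moved by more than the spread with cells of 2 gates kept for *Smad2* (22.9), *Smad3* (18.1), *Smad4* (43.8), *Smad6* (10.99) and *Smad7* (28.8), with 3 markers for *Smad3* (16.9), *Smad6* (11.1) and *Smad7* (28.4), with thinning for *Smad3* (16.2) and *Smad7* (29.6), and without cells over 2 times the median for *Smad3* (13.8). The cause was not tested. Types with few cells, such as the endothelial gate of control 1, limit the levels by counting error.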

Other observations

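The gene most like *Tgfbr1* after *Tor1aip1* was *Scoc* (Pearson r = 0.992 over 9 types), and for *Eng* *Ppm1f* followed (r = 0.973). Among pairs of the 10 genes the closest profiles over the 9 types were those of *Smad3* and *Smad4* (r = 0.968). This is a description with no test, and the low erythroid gate is among the types. In myogenic cells *Nedd4l*, a ubiquitin ligase for SMAD2 and the receptor, was higher than in remaining mesenchyme by 2.02 on the log2 scale (adjusted p = 2.6e-07 by edgeR). *Bmpr1a*, a BMP type I receptor, was lower in endothelial cells (-3.71, adjusted p = 9.6e-12) and in macrophages (-1.97, adjusted p = 6.2e-08).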
